A study of Mus musculus and Homo sapiens with 10 samples.

Results

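The genes DUSP4, DUSP5, DUSP6, SPRY2 and SPRY4 were examined for called peaks of the upstream binding factor (UBF) and of RNA polymerase I (Pol I) in human mammary epithelial cells. UBF is an architectural protein of the Pol I machinery that coats the active ribosomal RNA genes. Peaks were taken if they overlapped 1 of the 5 genes with 5 kb added on either side. This gave 30 peaks of the 51046 in the 3 human lists: 11 of 9478 UBF peaks in HMEC, 16 of 32274 UBF peaks in HMLER and 3 of 9294 Pol I peaks in HMEC. The genes were proposed with these peak lists in view, so the presence, number and width of their peaks are descriptions and carry no test.

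The series mapped proteins by chromatin immunoprecipitation and sequencing (ChIP-seq) in cultured lines grown exponentially. HMEC are primary mammary epithelial cells immortalized with telomerase (TERT). HMLER is an isogenic line derived from HMEC that carries TERT, the SV40 large-T and, of HRAS, an oncogenic allele (HRASV12G). Both lines carry TERT and were grown in the same medium, and they differ by both large-T and HRAS, so these alterations cannot be told apart. UBF was precipitated from both lines with a rabbit polyclonal antibody against UBF1/2, and Pol I from HMEC alone, with rabbit polyclonal antibodies against its largest subunit, POLR1A. Peak lists hold no expression, so the cell type could not be checked against markers and whether the 5 genes were expressed is not known from these files. The mouse lists of the series were not used here.

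RAS passes signals from growth factor receptors to RAF, MEK and the kinase ERK. ERK signalling induces several of its own inhibitors, and the DUSP and Sprouty genes are the textbook examples of this negative feedback. DUSP4, DUSP5 and DUSP6 encode dual-specificity phosphatases, which remove phosphate from the threonine and the tyrosine of the activation loop of MAP kinases. SPRY2 and SPRY4 encode Sprouty proteins, which act further upstream, between the receptors and RAF. UBF is itself a known substrate of ERK.

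Each list stands for 1 sample (n = 1) and gives only the position of each peak, so there was no replicate error, the depth is unknown, and no test between the lines was possible. The lists differed as wholes. HMLER UBF peaks had a median width of 982 bp and covered 38.2 Mb, against 469 bp and 5.24 Mb in HMEC, which is 3.41 times as many peaks and 7.29 times as many covered bases. The cause of that difference was not tested. The HMLER and HMEC values at single genes cannot be told apart from it. Pol I peaks in HMEC were narrower, with a median of 290 bp.

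All 5 genes held UBF in both lines. In HMEC the windows of DUSP4 and SPRY4 held 3 UBF peaks each, those of DUSP5 and SPRY2 held 2 each, and that of DUSP6 held 1. In HMLER there were 5 peaks at DUSP5, 4 at DUSP4, 3 at SPRY4 and 2 each at DUSP6 and SPRY2. As a background, the genome was cut into consecutive tiles as long as each gene's window. Between 4.13% (the length of the SPRY2 window) and 7.17% (that of DUSP4) of tiles held an HMEC UBF peak, 12.9% to 19.8% an HMLER UBF peak, and 2.82% to 5.24% both. The tiles include gaps and gene-free regions, and since the genes were chosen from these lists nothing is read from the contrast.

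**Figure D1:**
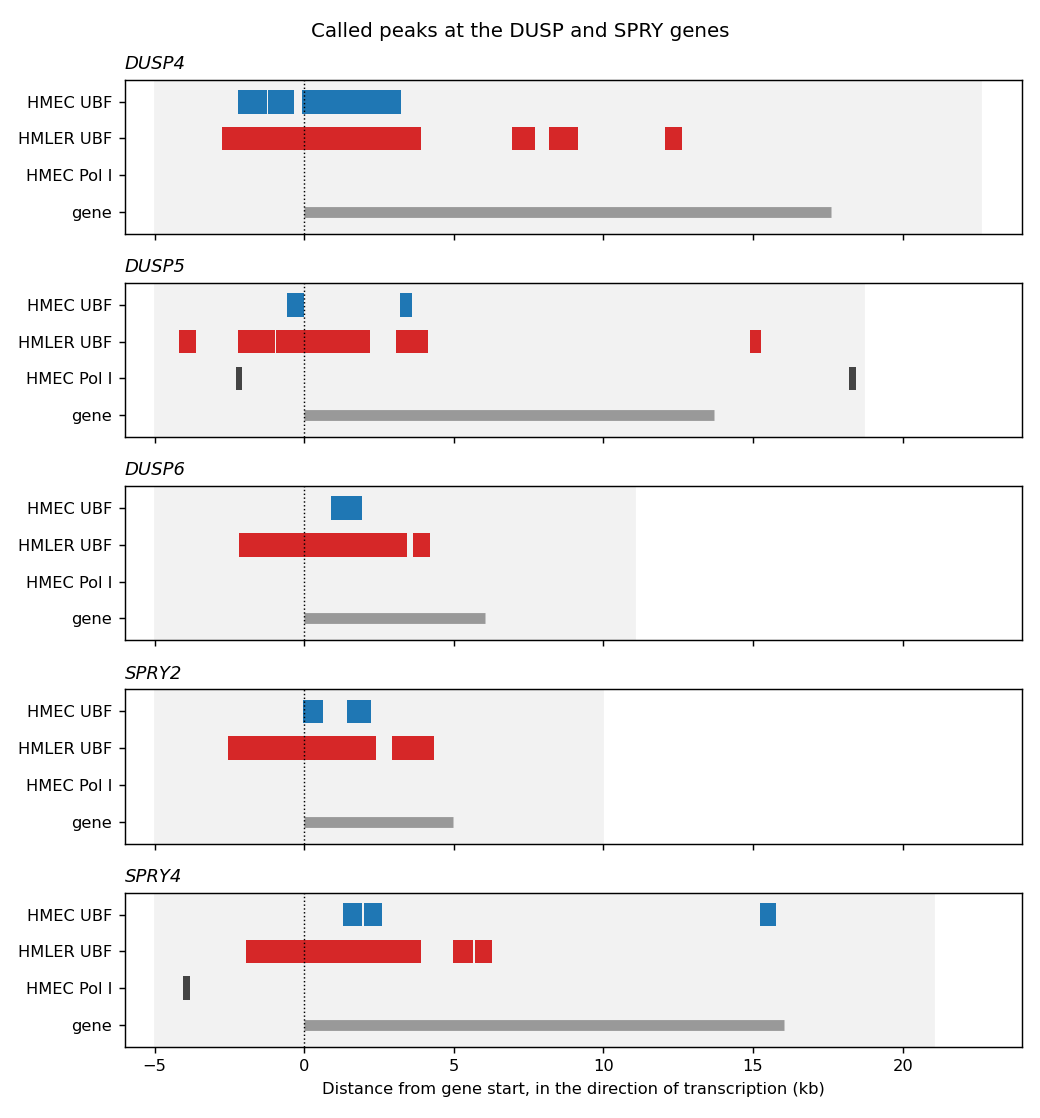
Positions of the called peaks at each gene, as distance in kb from the gene's start in the direction of transcription. Coloured blocks are peaks of HMEC UBF, HMLER UBF and HMEC Pol I, the grey bar is the gene and the pale band its window with 5-kb margins. In HMLER 1 peak lies across the start of each of the 5 genes; in HMEC only the peaks at DUSP4 and SPRY2 reach it.

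Among the phosphatase genes, DUSP4 encodes a nuclear phosphatase of ERK and related kinases. It lies on chromosome 8 of hg19 from 29190581 to 29208185, on the minus strand, so that its start is at the higher coordinate. The start used for every gene is the outer end of these gene coordinates; other transcript starts, exons and introns were not annotated here. The HMEC peak at the start of DUSP4 ran from 29204942 to 29208272. At 3330 bp it was the sixth widest (rank 6) of all HMEC UBF peaks, and 3243 bp of it lay downstream of the start. Upstream lay 2 more HMEC peaks, from 29208539 to 29209403 (864 bp) and from 29209417 to 29210403 (986 bp). Only 267 bp and 14 bp separated the 3 peaks.

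In HMLER a single peak of 6638 bp, from 29204284 to 29210922, took in all 3 HMEC peaks of DUSP4. It ranked 15 by width among the HMLER peaks. HMLER peaks that overlap 3 or more HMEC peaks were rare in the list as a whole, 74 in number (0.229%). The HMLER peak ran past the outer HMEC peaks by only 519 bp upstream and 658 bp downstream, so at DUSP4 the HMEC peaks already filled 78.0% of it. Ordered by the worse of their ranks in the lists, the DUSP4 pair came first of the 5408 overlapping pairs of HMEC and HMLER peaks. The best pair of the other genes came at place 79 for DUSP6, 223 for SPRY2, 537 for SPRY4 and 759 for DUSP5. The DUSP4 window was the one with the most HMEC coverage, 5180 bp. As much was found in 12 of 109909 tiles of that length, which include gaps and gene-free regions. Since the gene was chosen with these lists in view, nothing is read from these ranks and shares. HMLER also had 3 narrower peaks inside DUSP4, of 776, 956 and 580 bp, beginning 6951, 8193 and 12047 bp downstream of the start, where HMEC had none.

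DUSP5 encodes a nuclear phosphatase selective for ERK. It lies on the plus strand of chromosome 10, from 112257596 to 112271302. In HMEC a peak of 586 bp (112257006 to 112257592) ended 4 bp before the gene's start, and a second, of 407 bp (112260808 to 112261215), began 3212 bp inside the gene. Both had a counterpart in HMLER. The first lay in a peak of 3143 bp (112256654 to 112259797) that reached from 942 bp upstream to 2201 bp downstream of the start. The second lay in a peak of 1048 bp (112260674 to 112261722).

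DUSP5 differed from the other 4 genes in how its HMLER coverage was divided. Its widest HMLER peak ranked 700, against ranks of 15 to 89 at the others. A further HMLER peak of 1218 bp, from 112255398 to 112256616, stopped 38 bp short of it upstream. The remaining HMLER peaks were 554 bp wide, 3623 bp upstream of the start, and 368 bp wide, 1202 bp beyond the gene's end. With HMLER peaks under 200 bp apart joined, an alternative chosen after the data were seen, the peak over the start became 4399 bp wide and ranked 232 of 30780. In that joined list DUSP4 ranked 29, DUSP6 37, SPRY4 66 and SPRY2 141.

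DUSP6 encodes a cytoplasmic phosphatase selective for ERK, whose transcript is widely used as a readout of ERK activity. The gene lies on the minus strand of chromosome 12, from 89741009 to 89747048. Its window held a single HMEC UBF peak, of 1050 bp (89745102 to 89746152; rank 562), which began 896 bp downstream of the start. In HMLER the peak at the same place was 5622 bp wide (89743607 to 89749229; rank 44) and reached 2181 bp upstream of the start. It ran past the HMEC peak by 3077 bp on the upstream side and 1495 bp on the downstream side. A second HMLER peak of 568 bp (89742854 to 89743422) followed after a gap of 185 bp.

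Of the Sprouty genes, SPRY2 lies on the minus strand of chromosome 13, from 80910111 to 80915086, and is 4976 bp long. HMEC had a peak of 688 bp over its start (80914448 to 80915136), of which 50 bp lay upstream, and a peak of 816 bp inside the gene (80912838 to 80913654). In HMLER 1 peak of 4955 bp (80912687 to 80917642; rank 89) took in both. Its downstream end was 151 bp from that of the HMEC peaks, while its upstream end was 2506 bp away. A second HMLER peak of 1401 bp (80910764 to 80912165) lay within the gene, towards its end. UBF was sparse around SPRY2: within 1 Mb of the gene, outside its window, there were 2 HMEC and 8 HMLER peaks. The nearest UBF peaks outside the window were 854 kb away in HMEC and 97.7 kb away in HMLER.

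SPRY4, the other Sprouty gene, lies on the minus strand of chromosome 5, from 141689992 to 141706020. No HMEC peak reached its start. A pair of HMEC peaks, of 644 bp (141704073 to 141704717) and 594 bp (141703432 to 141704026), began 1303 bp downstream of the start and were 47 bp apart. Both fell in 1 HMLER peak of 5853 bp (141702123 to 141707976; rank 35), which reached 1956 bp upstream of the start. That peak ran past the HMEC pair by 3259 bp upstream and 1309 bp downstream. HMLER also had neighbouring peaks of 677 and 560 bp, 65 bp apart, beginning 4975 and 5717 bp inside the gene.

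SPRY4 also held the only HMEC peak of the 5 windows without a counterpart in HMLER. It was 536 bp wide, from 141690260 to 141690796, and lay 15224 bp downstream of the start, close to the gene's far end. By width it ranked 3484 of 9478, ahead of the shared peak inside DUSP5, at 6130.

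Together, 10 of the 11 HMEC UBF peaks of these genes met an HMLER peak (90.9%, exact 95% interval 58.7 to 99.8), and each of the 10 lay wholly inside one. Over the whole HMEC list 56.8% of peaks met an HMLER peak and 49.1% lay wholly inside one. The interval covers counting error only, and peaks of 1 gene are not independent. The genes were also chosen with these lists in view. Nothing is therefore read from the contrast between the shares at the genes and those of the lists, here or below. The 10 peaks lay in 6 HMLER peaks, since the HMLER peaks over DUSP4, SPRY2 and SPRY4 held 3, 2 and 2 of them. In the HMLER list as a whole 1.84% of peaks overlapped 2 or more HMEC peaks. In the other direction 6 of the 16 HMLER peaks met HMEC (37.5%, 15.2 to 64.6), beside 14.6% of the whole HMLER list. The share at the genes was 1 of 16 where at least 50% of the HMLER peak had to be covered, a condition that 2.63% of the whole list met. With the 9478 widest HMLER peaks alone, 5 of the 6 left at these genes met HMEC, against 34.3% of that reduced list, and 9 of 11 HMEC peaks met one, against 41.2% of the HMEC list.

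The shared positions depended on the widths of the peaks. With every peak of both lists set to 500 bp around its centre, 2 of the 11 HMEC peaks still met HMLER (18.2%), against 41.1% of the whole HMEC list, and 2 of the 16 HMLER peaks met HMEC, against 11.7% of the whole HMLER list. The HMEC peaks left were the peak inside DUSP5 and the peak over the start of SPRY2, whose centres were 186.5 and 372.5 bp from those of their HMLER peaks. In the other 8 pairs the centres were 654.5 to 2307 bp apart. The median distance was 961 bp over the 10 pairs and 294 bp over all 5408 pairs of the lists. The HMLER centre lay upstream of the HMEC centre in 6 of the 10 pairs and downstream in 4.

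**Figure D2:**
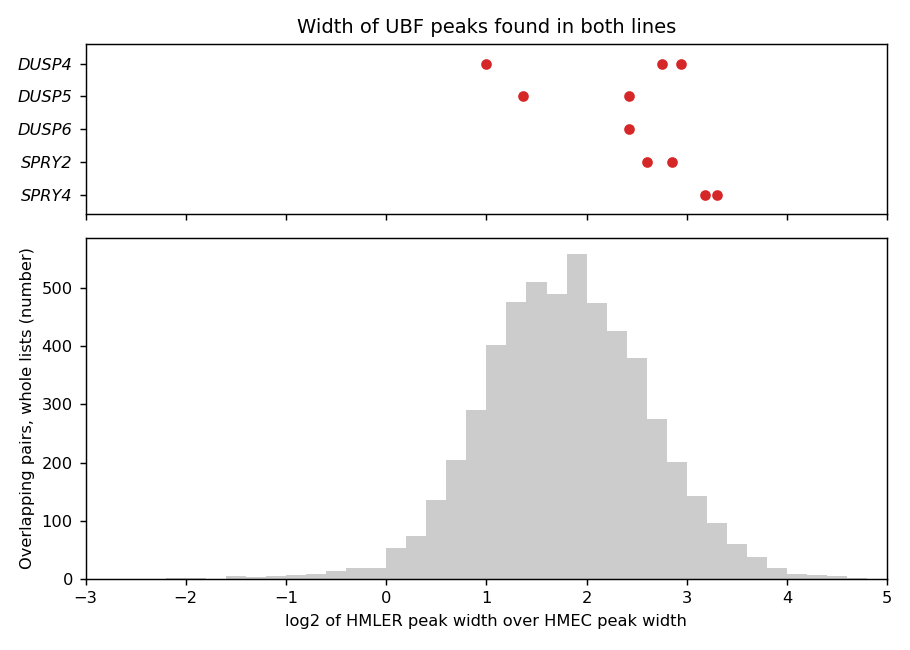
Width of the HMLER peak over that of the HMEC peak it overlaps, on a log2 scale. Red points are the 10 pairs at the 5 genes, and grey bars count all 5408 pairs of the lists. An HMLER peak that holds several HMEC peaks is counted with each of them. The point furthest to the left is the wide DUSP4 peak, at 0.995, and the points furthest to the right are the SPRY4 pair, at 3.18 and 3.30.

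At shared positions HMLER peaks were wider than HMEC peaks in all 10 pairs. The same held for most of the 5408 pairs of the lists, so it is not particular to these genes. The ratio of widths ran from 1.99 at the wide DUSP4 peak to 9.85 at SPRY4, with a median of 6.40. Over all pairs of the lists the median was 3.47, with quartiles of 2.37 and 5.08. Pairs that share an HMLER peak are not independent. At DUSP5 the ratios were 5.36 at the start and 2.57 inside the gene, at DUSP6 5.35, and at SPRY2 6.07 and 7.20. Where an HMLER peak held several HMEC peaks, its width was divided by each in turn, which raises the ratio. The widest HMLER peak of each gene was also set against the summed widths of the HMEC peaks inside it. This ratio was 1.28 at DUSP4, 3.29 at SPRY2, 4.73 at SPRY4, 5.35 at DUSP6 and 5.36 at DUSP5. The list median of 3.47 is by pairs and was not computed with sums.

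The widest HMLER peak of each gene lay over the gene's start. These 5 peaks shared a stretch from 942 bp upstream to 2201 bp downstream of the start, which is the extent of the DUSP5 peak. HMEC had no position common to all 5 genes. Its most shared stretch was 514 bp long, from 1432 to 1946 bp downstream of the start, and was covered in DUSP4, DUSP6, SPRY2 and SPRY4. In DUSP5 the HMEC peaks lay on either side of it. Of the 11 HMEC peaks 2 lay over a start, 3 upstream and 6 inside a gene. Of the 16 HMLER peaks 5 lay over a start, 2 upstream, 8 inside a gene and 1 beyond a gene's end. The starts of other genes were not annotated here, so the share of all UBF peaks over a start is not known. Whether these places are particular to the 5 genes was not tested.

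Coverage close to the start differed between the lines at every gene. Within 1 kb on either side of the start, HMLER UBF peaks covered 100% of the bases at DUSP4, DUSP6, SPRY2 and SPRY4 and 98.1% at DUSP5. HMEC peaks covered 86.7% at DUSP4, 34.4% at SPRY2, 29.3% at DUSP5, 5.20% at DUSP6 and none at SPRY4. Coverage at the starts of other genes was not computed. These values cannot be told apart from the difference between the whole lists. Of the covered bases of the 5 windows, 24.5% lay upstream of a start in HMEC and 34.8% in HMLER, where 23.1% of the bases of the windows themselves lie upstream. The genes differed: the upstream share was larger in HMEC than in HMLER at DUSP4 (37.4% and 30.6%) and DUSP5 (59.0% and 42.9%), and smaller at SPRY2 (3.32% and 40.2%). In HMEC no upstream base was covered at DUSP6 or SPRY4, where HMLER covered 2181 and 1956 bp.

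**Figure D3:**
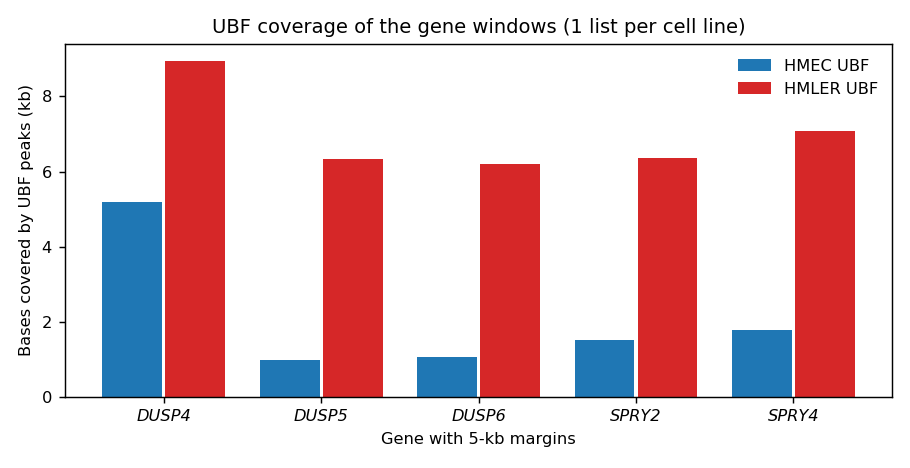
Bases covered by UBF peaks, in kb, in the window of each gene, for HMEC (blue) and HMLER (red), with 1 list per line and no error bars. The HMLER bars lie between 6190 and 8950 bp. The HMEC bars lie between 993 and 1774 bp at 4 genes, with DUSP4 apart at 5180 bp.

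Over the whole windows, HMLER UBF covered 8950 bp at DUSP4, 7090 bp at SPRY4, 6356 bp at SPRY2, 6331 bp at DUSP5 and 6190 bp at DUSP6. HMEC UBF covered 5180 bp at DUSP4, 1774 bp at SPRY4, 1504 bp at SPRY2, 1050 bp at DUSP6 and 993 bp at DUSP5. HMLER thus covered more bases than HMEC in each window. As a share of the window, which is longest at DUSP4, HMLER covered 42.4% at SPRY2, 38.6% at DUSP6, 32.4% at DUSP4, 27.2% at SPRY4 and 26.7% at DUSP5. In HMEC these shares were 10.04% at SPRY2, 6.55% at DUSP6, 18.8% at DUSP4, 6.82% at SPRY4 and 4.19% at DUSP5, so that DUSP4 came first in HMEC and SPRY2 in HMLER. The mean width of the peaks was 955 bp in HMEC and 2182 bp in HMLER.

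Summed over the windows, HMLER covered 34917 bp and HMEC 10501 bp, a ratio of 3.33, below the 7.29 of the whole lists. The ratio was 1.73 at DUSP4, 4.00 at SPRY4, 4.23 at SPRY2, 5.90 at DUSP6 and 6.38 at DUSP5, and 4.88 over the 4 genes without DUSP4. Tiles of the windows' lengths that held both HMEC and HMLER peaks had median ratios of 3.18 to 3.48. For the length of the DUSP5 window the quartiles were 2.17 and 5.39, and for DUSP6 they were 2.13 and 5.05, so both genes were above the upper one. DUSP4 was below the lower quartile of its tiles, which was 2.21. SPRY2 and SPRY4 lay between the quartiles of theirs.

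The genes also differed in how far the covered bases coincided. Of the bases covered in HMLER, those also covered in HMEC made up 57.9% at DUSP4 and 15.7% to 23.7% at the other 4 genes. In the other direction the HMEC bases were covered in HMLER to 100% at DUSP4, DUSP5, DUSP6 and SPRY2 and to 69.8% at SPRY4.

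**Figure D4:**
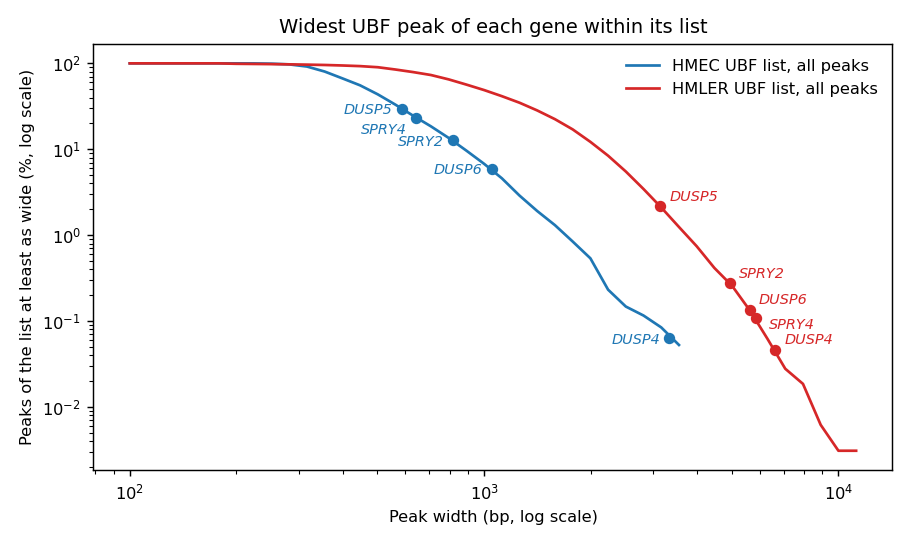
Share of each UBF list, in percent, that is at least as wide as a given width in bp (both axes logarithmic). Points mark the widest UBF peak of each gene in HMEC (blue) and HMLER (red). All genes but DUSP5 lie in the widest 0.276% of the HMLER list, while in HMEC only DUSP4 lies in a comparable part of its list.

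The genes kept different places in the lists. By width, the widest HMLER peak of DUSP4, SPRY4, DUSP6 and SPRY2 was reached by 0.0465%, 0.108%, 0.136% and 0.276% of HMLER peaks, and that of DUSP5 by 2.17%. In HMEC the widest peak of DUSP4 was reached by 0.0633% of peaks, followed by DUSP6 at 5.94%, SPRY2 at 12.7%, SPRY4 at 23.3% and DUSP5 at 29.8%. DUSP4 was thus first and DUSP5 last in both lines, while SPRY4 was next to DUSP4 in HMLER and next to DUSP5 in HMEC. The place of SPRY4 rests on small gaps. With HMLER peaks under 200 bp apart joined, DUSP6 (rank 37) came before SPRY4 (rank 66). In HMEC the pair of SPRY4 peaks nearest the start was 47 bp apart, and ranks with close HMEC peaks joined were not computed. No spread can be given for these places, so neighbours in the order cannot be separated.

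Wide HMLER peaks at these genes were the ones shared with HMEC. The 6 shared HMLER peaks were 1048 to 6638 bp wide (median 5288 bp), and the 10 without HMEC were 368 to 1401 bp wide (median 628.5 bp). The ranges overlap only through the shared peak inside DUSP5 and the unshared peaks of 1218 bp upstream of DUSP5 and 1401 bp in SPRY2. In the whole HMLER list the medians were 1761 bp for shared and 900 bp for unshared peaks. All HMLER peaks found at these genes without an HMEC counterpart lay away from the start, the nearest 980 bp upstream of DUSP5.

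The genes also lay in regions of different density. In the flanks within 1 Mb of the gene, outside the window, HMLER had 71 UBF peaks around SPRY4, 47 around DUSP4, 28 around DUSP5, 10 around DUSP6 and 8 around SPRY2. HMEC had 13 around DUSP4, 12 each around DUSP5 and SPRY4, 4 around DUSP6 and 2 around SPRY2. Per Mb this is 4.02 to 35.7 in HMLER and 1.01 to 6.53 in HMEC, against 10.6 and 3.12 over chromosomes 1 to 22 and X. The flanks of DUSP6 and SPRY2 were thus below the mean of both lists and those of DUSP4, DUSP5 and SPRY4 above it.

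Pol I peaks were called at DUSP5 and SPRY4. DUSP4, DUSP6 and SPRY2 had no HMEC Pol I peak in their windows. DUSP5 had 2, of 226 bp (112255307 to 112255533) and 251 bp (112275787 to 112276038), and SPRY4 had 1, of 225 bp (141709847 to 141710072). Between 4.30% and 7.60% of tiles of the windows' lengths held a Pol I peak. As many as at DUSP5 were held by 0.581% of tiles as long as its window, and nothing is read from this either. All 3 Pol I peaks lay outside the genes: 2063 bp upstream of the start of DUSP5, 4485 bp beyond its end, and 3827 bp upstream of the start of SPRY4.

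No HMEC UBF peak of the windows overlapped Pol I (0 of 11, exact upper limit 28.5%), beside 2.72% of the whole HMEC list. The limit takes peaks as independent, which peaks of 1 gene are not. At so low a list share, 0 of 11 shows nothing particular to these genes. The upstream Pol I peak of DUSP5 overlapped by 135 bp the 1218-bp HMLER UBF peak, which has no HMEC counterpart. It was the only 1 of the 16 HMLER peaks to meet Pol I, and 3.47% of the whole HMLER list did. Taken from the Pol I side, 1 of the 3 peaks met HMLER UBF, against 12.4% of the whole Pol I list. Pol I was mapped in HMEC only, so this overlap sets different lines side by side. A missing peak shows only that none was called.

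The margin of 5 kb brought in 3 of the 11 HMEC and 3 of the 16 HMLER UBF peaks. These were the HMEC peaks 354 and 1232 bp upstream of DUSP4 and 4 bp upstream of DUSP5, and the HMLER peaks 980 and 3623 bp upstream and 1202 bp downstream of DUSP5. Just outside, the nearest HMLER peaks were 15.5 kb from SPRY4 (1064 bp wide), 16.8 kb from DUSP4 (1693 bp), 18.5 kb from DUSP5 (766 bp) and 30.3 kb from DUSP6 (1011 bp). The nearest HMEC UBF peaks outside were 62.0 kb from DUSP6, 80.0 kb from DUSP5, 201 kb from SPRY4 and 234 kb from DUSP4. These distances were longer in HMEC than in HMLER at all 5 genes, SPRY2 included, and the HMEC list is the shorter, with 3.12 peaks per Mb against 10.6.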

How the data were processed

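The 3 human lists used here (UBF in HMEC, UBF in HMLER, Pol I in HMEC) hold the chromosome, start and end of each peak as the authors deposited them, with no score, height or read count. The submitters' processing notes name CASAVA 1.8.2, BWA, Picard and the build hg19. A peak caller or threshold was not given in the sources used here. Coordinates are printed as in the files, whose counting origin is not given.

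The gene coordinates are those by which the genes were chosen, and strands are general knowledge. No human annotation, promoter or protein sequence was used here, so exons, motifs, the other pathway genes and the genes most like these were not analysed. All peaks of the 5 genes are named. The members and the alternatives were chosen with earlier results of these data known.

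Lines were split at carriage returns. Peaks sharing at least 1 bp count as overlapping; widths are end minus start; ranks are by width, widest first. Tiles were laid end to end over chromosomes 1 to 22 and X. Intervals are exact (Clopper-Pearson) at 95%. The overlap code (Python 3.11.15, pandas 2.3.3, SciPy 1.17.1) was tested on simulated data. Alternatives were the margin, the overlap, the width and the length of the lists.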

Additional observations from a re-analysis of the deposited data

How the results depend on the processing

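No paired analysis was possible because each line has 1 UBF list, and no list could be left out in turn. The count of HMLER UBF peaks at the 5 genes moved from 16 to 8 in the wider 50% of each list and to 6 when only the 9478 widest HMLER peaks were kept. The HMEC count was 11, and 10 in the wider 50%, so in both settings HMLER had the fewer peaks. HMLER had the more without a margin (13 against 8) and with 20 kb (19 against 11). The count of Pol I peaks moved from 3 to 0 without a margin, to 5 with 20 kb, and to 0 in the wider 50%. The share of HMEC peaks that met HMLER moved from 90.9% to 18.2% with every peak set to 500 bp. The share of HMLER peaks that met HMEC moved from 37.5% to 12.5% with every peak set to 500 bp, to 6.25% with at least 50% of the peak covered and to 83.3% with the reduced HMLER list. For the whole lists these 3 shares were 11.7%, 2.63% and 34.3%. HMLER-covered bases moved from 34917 to 22405 without a margin, where fewer bases are searched. The ratio of HMLER to HMEC covered bases stayed between 2.63 and 4.88 in the 9 alternatives run for it, which include each gene left out in turn and were in part chosen after the data were seen. With no scores, peaks could be ordered only by width, which need not follow the strength of binding, and depth limits could not be given.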
